A study of Mus musculus with 17 samples.

Results

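Glial cells of the brain answer injury and inflammation by raising a set of genes that serve as markers of reactivity, and 8 of these genes were followed here through single-nucleus RNA counts of mouse brain: Gfap, Vim, Serpina3n, C4b, Lcn2, Cd44, Osmr and Stat3. They were chosen by name, and 7 of the 8 had a row among the 26131 genes of the deposited count table. The RNA level of Lcn2 was not analysed here. Levels and shares of nuclei with at least 1 UMI (a unique molecular identifier, the count of 1 captured RNA molecule) were taken per animal in nuclei that the authors had labelled astrocytes (4972), oligodendrocytes (75282) or microglia (8444), of 284074 nuclei in all. Levels are given as CPM, UMIs of a gene per 1000000 UMIs of the nuclei in question.

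The study set antibody-based carriers of an oligonucleotide side by side. All 17 mice were females of 2.3 months and carried the human TfR (transferrin receptor) knock-in on both alleles (hTfR KI HOM), and the posterior brain was used. Each group was given 4 weekly intravenous doses and harvested 72 hours after the last one: saline (n = 4), the free Malat1 ASO, an antisense oligonucleotide against the nuclear RNA Malat1 (n = 4, labelled 2 mg/kg), anti-TfR:Malat1, named TfR-Malat1 in the sample labels (n = 6, 50 mg/kg), and OTV:Malat1 (n = 3, 50 mg/kg). The knock-in was carried by the saline animals too, and no group with the mouse receptor alone was analysed here. The labels name each sample separately, so p-values measure the spread between these samples.

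In an astrocyte, Gfap and Vim encode the intermediate filament proteins of the cytoskeleton. Serpina3n encodes a secreted inhibitor of serine proteases, C4b a complement component, and Lcn2 a secreted lipocalin. Cd44 is a receptor for hyaluronan at the cell surface. Osmr pairs with gp130 (Il6st) to form a receptor for oncostatin M, and Stat3 is the transcription factor that such cytokine receptors activate through JAK kinases. In the brain these genes are best known from reactive astrocytes, while Serpina3n and C4b are also used as markers of oligodendrocytes in disease. The counts came from nuclei, so they report nuclear transcripts and not protein.

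In the mouse annotation (GENCODE M21, GRCm38, the same assembly as mm10), the genes lie apart from each other. Gfap spans chr11:102887336-102900912 on the minus strand, and Stat3 lies on the same chromosome at chr11:100885098-100939540, also on the minus strand. Vim is at chr2:13573927-13582826 on the plus strand and Cd44 at chr2:102811141-102901665 on the minus strand. Serpina3n is at chr12:104406729-104414329 (plus), Osmr at chr15:6813577-6874969 (minus) and C4b at chr17:34728380-34743882 (minus). All 8 are protein-coding genes.

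Promoters, taken as 250 bases before to 50 bases after the annotated start, were present for 7 members in RefSeq (GRCm38.p6) among 32851 promoters. C4b had no entry matching its symbol and was not searched, so the 7 include Lcn2. Each was searched on both strands for TTCNNNGAA and its stricter form TTCCNGGAA (letters of the STAT motif), TGANTCA (AP-1) and CACGTG (E-box). The first contains every match of the second. The 2 member promoters with a match are shown because they are those of the best known reactive filament gene and of the cytokine receptor, with the matched letters in capitals. The Gfap window is chr11:102897151-102897450 (minus strand), inside the GENCODE span because RefSeq starts the gene further in, and the Osmr window is chr15:6874264-6874563 (minus strand).
Gfap: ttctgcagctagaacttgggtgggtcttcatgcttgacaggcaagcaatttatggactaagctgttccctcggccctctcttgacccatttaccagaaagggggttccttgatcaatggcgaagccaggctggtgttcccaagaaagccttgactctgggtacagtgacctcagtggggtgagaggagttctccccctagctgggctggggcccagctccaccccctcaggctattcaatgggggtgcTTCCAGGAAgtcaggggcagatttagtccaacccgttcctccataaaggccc
Osmr: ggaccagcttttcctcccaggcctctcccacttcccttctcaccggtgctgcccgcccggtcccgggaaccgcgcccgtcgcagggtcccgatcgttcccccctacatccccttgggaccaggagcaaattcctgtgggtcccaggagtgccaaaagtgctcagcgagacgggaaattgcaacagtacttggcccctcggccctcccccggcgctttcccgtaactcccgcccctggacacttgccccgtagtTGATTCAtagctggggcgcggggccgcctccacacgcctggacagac
The Gfap promoter was the only one of the 7 with TTCNNNGAA, a motif held by 8.30% of all promoters, and it also held TTCCNGGAA, held by 1.15%. The Osmr promoter was the only one with TGANTCA, held by 7.81% of all promoters, and none of the 7 had CACGTG, held by 7.15%. A match is a description of these letters and not a measured site of binding.

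In the 3 classes the markers of the labelled cell type were the highest. Over 8 markers each, astrocyte markers summed to 11634 CPM in nuclei labelled astrocytes, against 253 CPM in oligodendrocytes and 388 CPM in microglia. Oligodendrocyte markers summed to 11605 CPM in oligodendrocytes and microglial markers to 8160 CPM in microglia. Markers of another type were not absent: microglia had 1248 CPM of oligodendrocyte markers, and astrocyte markers summed to 3007 CPM in nuclei labelled vascular cells and 2039 CPM in those labelled glia. Per animal, 6 neuron markers summed to 919 to 1981 CPM in astrocytes, 982 to 2050 CPM in oligodendrocytes and 1241 to 2818 CPM in microglia. Animals had 163 to 473 astrocyte nuclei (259868 to 1258327 UMIs), 3721 to 5797 oligodendrocyte nuclei (4120611 to 9483846 UMIs) and 349 to 724 microglial nuclei (327643 to 848210 UMIs). The authors' doublet calls covered 10.0% of astrocyte nuclei, 4.61% of oligodendrocyte nuclei and 3.38% of microglial nuclei, all of which were kept. Of 273792 distinct barcodes, 10044 (3.67%) occurred in more than 1 animal. The labels themselves were derived from expression, so differences between cell types are given as descriptions with no test.

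Among the filament genes, Gfap was an astrocyte transcript but a sparse one. It was found in 4.81% of astrocyte nuclei, at 32.5 CPM (95% Poisson interval 29.0 to 36.3, 315 UMIs over the 17 animals). In oligodendrocytes Gfap stood at 1.21 CPM (1.02 to 1.44) and in microglia at 1.32 CPM (0.682 to 2.30). Neurons, the deepest class with a median of 4614 UMIs per nucleus against 1800 in astrocytes, had 0.456 CPM (442 UMIs). Of these UMIs, 42 came from 1147 nuclei labelled neurons in deposited cluster 14, which also held 4793 of the 4972 astrocyte nuclei. When each nucleus was thinned to 500 UMIs, Gfap was expected in 1.67% of astrocyte nuclei, 0.0671% of oligodendrocyte nuclei and 0.0292% of neurons. These intervals, and the limits below for counts of 0, cover counting error only.

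Vim, the other filament gene, was highest outside these 3 classes. Nuclei labelled vascular cells had 67.5 CPM of Vim (55.5 to 81.4), against 3.50 CPM (2.43 to 4.90) in astrocytes, 0.844 CPM in oligodendrocytes and 0.989 CPM in microglia. Only 34 astrocyte nuclei (0.684%) had a UMI of Vim. The vascular level came from 110 UMIs in 1226 nuclei. In neurons Vim stood at 0.539 CPM.

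The secreted factors differed from each other. C4b reached 14.8 CPM (12.5 to 17.5) in astrocytes and 3.37 CPM (3.03 to 3.73) in oligodendrocytes, while microglia had 0.770 CPM from 7 UMIs. The highest C4b level was in perivascular macrophages, at 31.9 CPM (20.4 to 47.4), from 24 UMIs. Serpina3n was low in all 3 classes and in neurons: 1.03 CPM (0.494 to 1.90) in astrocytes, 0.769 CPM (0.613 to 0.954) in oligodendrocytes, 1.10 CPM (0.527 to 2.02) in microglia and 0.591 CPM in neurons. These intervals overlap between the 3 glial classes, so no order of Serpina3n among them was detectable at this depth.

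C4b has a near-identical neighbour, C4a, at chr17:34809092-34823464 on the minus strand, which the annotation gives as a processed transcript. Of 5290 windows of 90 bases along the C4b transcript, 998 (18.9%) also occur in C4a, and how reads common to both were counted is not given in the sources used here. C4a held 1 UMI in astrocytes and 15 UMIs in oligodendrocytes, against 144 and 363 for C4b. In neurons the order turned, with 663 UMIs of C4a (0.684 CPM) and 177 of C4b (0.183 CPM). Of the other members, only Serpina3n had shared windows, 0.709% with Serpina3e-ps.

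Of the receptors, Osmr was highest in vascular nuclei and Cd44 in the small class labelled glia. Osmr reached 81.6 CPM (68.4 to 96.8) in vascular nuclei and 4.95 CPM (3.65 to 6.56) in astrocytes, but 0.0927 CPM (10 UMIs) in oligodendrocytes. No Osmr UMI was found in microglia (0 of 8444 nuclei, which by a limit of 3 counts allows a share of up to 0.0355%, or a level of 0.330 CPM). Cd44 stood at 6.19 CPM (4.72 to 7.96) in astrocytes, 1.51 CPM (1.29 to 1.76) in oligodendrocytes and 1.43 CPM (0.761 to 2.44) in microglia. Neurons had 2.32 CPM of Cd44, above the oligodendrocyte level, and neurons of the deposited cluster 12 had 7.60 CPM (6.91 to 8.34, 445 UMIs). The small class that the authors labelled glia (225 nuclei) had 33.3 CPM of Cd44 (19.0 to 54.1), from 16 UMIs.

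Stat3, the transcription factor, was read in more nuclei than any other member in every label. It was highest in microglia, at 164 CPM (156 to 173), and in vascular nuclei, at 160 CPM (141 to 180), and these intervals overlap. Astrocytes had 83.0 CPM (77.4 to 88.9), oligodendrocytes 57.4 CPM (56.0 to 58.9) and neurons 35.8 CPM. Thinned to 500 UMIs per nucleus, Stat3 was expected in 7.75% of microglial, 4.11% of astrocyte, 2.78% of oligodendrocyte and 1.96% of neuronal nuclei. Over these 4 classes the order was the same by level and by thinned share. Unthinned, neurons had Stat3 in 15.1% and microglia in 15.3% of nuclei.

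**Figure D1:**
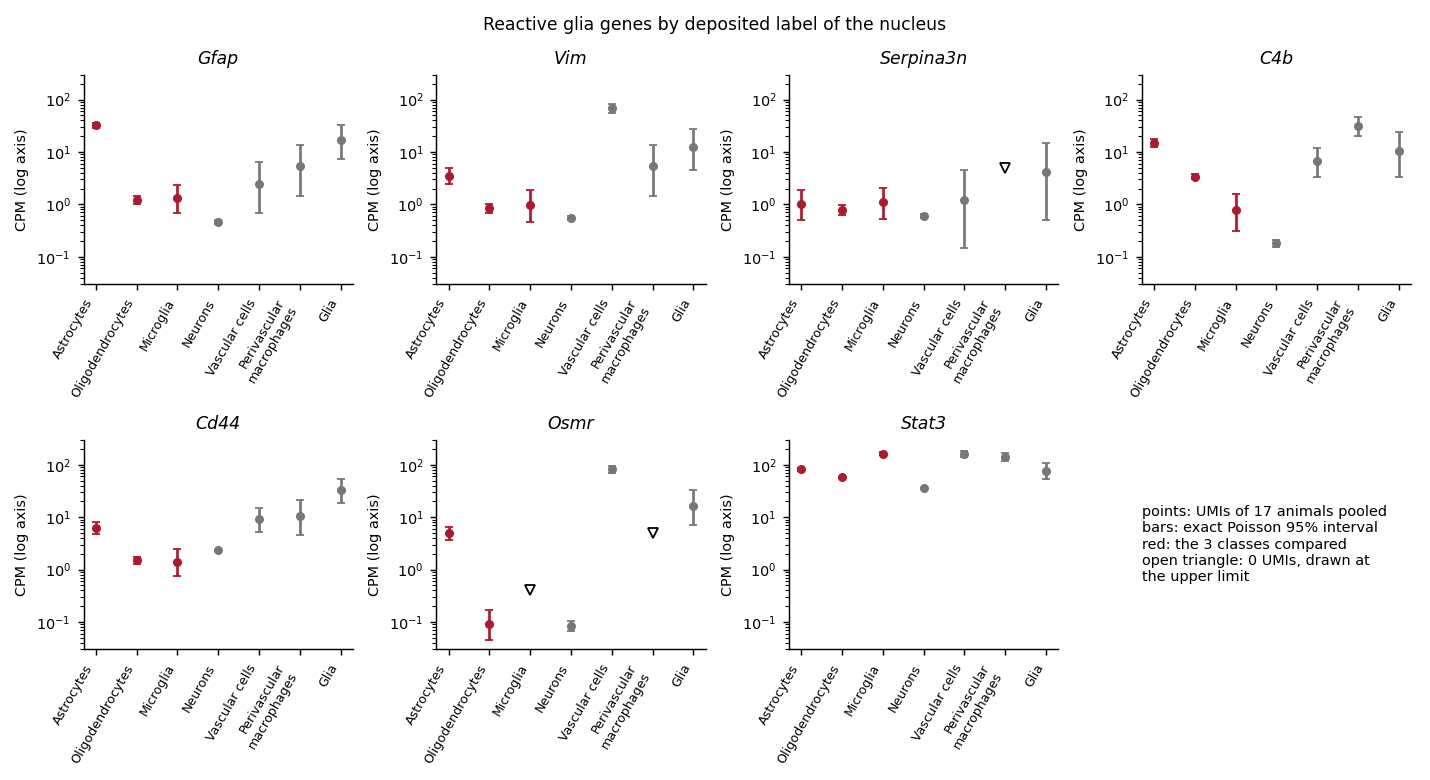
CPM of each of the 7 members with counts in every deposited label, pooled over 17 animals, on a log axis with 95% Poisson intervals. Gfap is highest in astrocytes (32.5 CPM), Vim and Osmr in vascular nuclei (67.5 and 81.6 CPM), and Stat3 in microglia (164 CPM).

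Free RNA in the droplets can put UMIs of a gene into nuclei that do not express it, and its part in these levels was not tested. As a measure beside them, per 1000 UMIs of the 8 astrocyte markers, Gfap had 2.79 UMIs (2.49 to 3.12) in astrocytes, 4.79 (4.01 to 5.69) in oligodendrocytes and 0.981 (0.892 to 1.08) in neurons. The same ratio for C4b was 1.28 (1.08 to 1.502) in astrocytes, 13.3 (11.95 to 14.7) in oligodendrocytes and 0.393 (0.337 to 0.455) in neurons. Both ratios were higher in oligodendrocytes than in astrocytes and lower in neurons. The 131 oligodendrocyte nuclei with Gfap had 394 CPM of astrocyte markers, against 253 CPM in those without. The authors called 5.34% of them doublets, against 4.60%.

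Within astrocytes, nuclei with Gfap had higher pooled levels of C4b, Cd44, Osmr and Stat3 than the rest. The sparser members had too few UMIs for a comparison by animal. Of the 4972 astrocyte nuclei, 239 had Gfap, 179 of them by 1 UMI and 60 by 2 or more, with a median depth of 1818 UMIs against 1799 in the others. C4b was present in 12.6% of nuclei with Gfap and in 2.26% of those without, and its level was 67.0 CPM (45.8 to 94.5) against 12.1 CPM (10.0 to 14.6). The C4b level was higher in the nuclei with Gfap in 14 of 17 animals. Cd44 was present in 6.28% against 0.803% of nuclei, at 37.7 CPM (22.3 to 59.5, 18 UMIs) against 4.55 CPM (3.28 to 6.16). By animal its level was higher in 10 and lower in 7. Stat3 was present in 26.8% against 12.6%.

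Stat3 stood at 176 CPM in the nuclei with Gfap and 78.2 CPM in those without, and was higher in 14 of 17 animals. Osmr stood at 20.9 CPM (10 UMIs) against 4.12 CPM, but was higher in 7 animals and lower in 8. Vim stood at 10.5 CPM (3.40 to 24.4, 5 UMIs) against 3.14 CPM, and Serpina3n at 2.09 CPM (1 UMI) against 0.976 CPM. By animal, Vim was higher in 5 and lower in 9, and Serpina3n higher in 1 and lower in 6. So few UMIs limit how many animals can be higher, so the tallies of Osmr, Vim and Serpina3n give no direction. Aqp4, the water channel of astrocyte endfeet, stood at 408 against 147 CPM and was higher in 15 of 17 animals. The glutamate transporters differed less, with Slc1a2 at 5524 against 5132 CPM and Slc1a3 at 1708 against 1834 CPM. Doublet calls covered 9.21% of nuclei with Gfap and 10.0% of those without. These are values of pooled nuclei, given as a description. In oligodendrocytes 1 of 131 nuclei with Gfap (0.763%) had C4b, against 0.459% of those without.

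**Figure D2:**
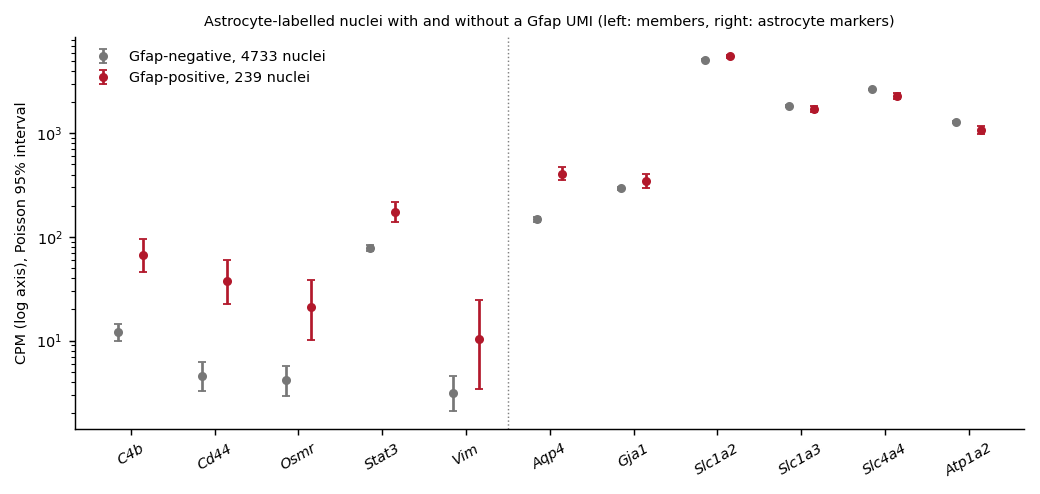
CPM of members and astrocyte markers in astrocyte nuclei with and without a Gfap UMI, on a log axis with 95% Poisson intervals. C4b is at 67.0 against 12.1 CPM and Aqp4 at 408 against 147 CPM, while Slc1a2 is at 5524 against 5132 CPM.

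The action of the oligonucleotide was read first from its target. Malat1 made up 10.2% ± 1.75 (SD, n = 4) of oligodendrocyte UMIs in saline animals, 9.73% ± 2.08 (n = 4) after Malat1 ASO, 6.97% ± 1.09 (n = 6) after anti-TfR:Malat1 and 1.67% ± 0.205 (n = 3) after OTV:Malat1. In astrocytes the means were 9.61%, 9.21%, 6.17% and 3.30%, and in microglia 5.26%, 5.25%, 4.55% and 3.30%. By edgeR's quasi-likelihood test, Malat1 fell after OTV:Malat1 against saline by 2.79 on the log2 scale in oligodendrocytes (SE 0.19, adjusted p = 8.74e-08) and by 1.65 in astrocytes (SE 0.17, adjusted p = 5.79e-07). In microglia it fell by 0.71 (SE 0.13, adjusted p = 0.0462), a call that some alternatives lost. The log2 difference was then -0.61 without the authors' doublets (adjusted p = 0.19 in edgeR), -0.71 with 2 groups only (0.14) and -0.59 where label and cluster agree (0.32). The call was also lost when saline animal 1, 2 or 3, Malat1 ASO animal 2, anti-TfR:Malat1 animal 2 or 4, or any OTV:Malat1 animal was left out, with log2 differences of -0.78 to -0.60 and adjusted p of 0.0566 to 0.628 in edgeR. CPM counts Malat1 in the total, so the other genes' CPM includes its change. Leaving Malat1 out of the totals changed no call of a member.

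The members' levels were then compared between treatments with edgeR fitted over all genes of a class. Every treatment was set against saline, and the conjugates against each other. The 3 comparisons with saline share the same 4 animals. Only 7 member and class pairs passed the filter on low counts: Gfap and Stat3 in astrocytes, Gfap, C4b, Cd44 and Stat3 in oligodendrocytes, and Stat3 in microglia. None of the 28 resulting tests passed an adjusted p of 0.05. The adjusted p ranged from 0.968 to 1.00 in edgeR, 5 of the 28 had an unadjusted p under 0.05, and DESeq2 also called 0. These 5 were of Gfap and Cd44 in oligodendrocytes. There 1.83% of all genes tested had an unadjusted p under 0.05 for anti-TfR:Malat1 against saline. The share was 1.03% for Malat1 ASO against saline and 2.94% between the conjugates. Over all classes and comparisons it ran from 1.03% to 4.07%. Few genes of any kind were called. In astrocytes 0.0117% of 8547 genes were called for OTV:Malat1 against saline, 0.0117% for OTV:Malat1 against anti-TfR:Malat1, and 0% for anti-TfR:Malat1 or Malat1 ASO against saline. In oligodendrocytes the shares of 14419 genes were 0.0208% for OTV:Malat1 against saline, 0.00694% for OTV:Malat1 against anti-TfR:Malat1, and 0% for the other comparisons. In microglia they were 0.011% of 9104 genes for OTV:Malat1 against saline and 0% for the other comparisons. Where 0 genes were called, 148 to 331 genes had an unadjusted p under 0.05, and DESeq2 called 0 as well.

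Gfap in astrocytes varied widely between animals of a group. The saline animals had 39.7, 15.8, 66.7 and 31.9 CPM (mean 38.5 ± 21.3, SD, n = 4). The Malat1 ASO animals had 23.7, 27.2, 24.8 and 22.2 CPM (24.5 ± 2.09, n = 4). The anti-TfR:Malat1 animals ran from 9.74 through a median of 40.1 to 57.0 CPM (35.9 ± 17.8, n = 6), and the OTV:Malat1 animals had 29.9, 36.2 and 27.2 CPM (31.1 ± 4.65, n = 3). All groups overlapped, and the lowest and the highest of the 17 values came from an anti-TfR:Malat1 and a saline animal. The log2 change against saline was -0.41 (SE 0.37) for OTV:Malat1, -0.19 (SE 0.30) for anti-TfR:Malat1 and -0.65 (SE 0.35) for Malat1 ASO, each with an adjusted p of 1.00 in edgeR. For OTV:Malat1 the 95% interval of the fold ran from 0.448 to 1.26. Within batches the log2 ratios of CPM + 1 for Malat1 ASO against saline were -0.72, 0.75, -1.39 and -0.50, so the batches differed in sign. The share of astrocyte nuclei with Gfap, at 500 UMIs, was 1.98% ± 1.05 in saline, 1.27% ± 0.253 after Malat1 ASO, 1.83% ± 0.983 after anti-TfR:Malat1 and 1.51% ± 0.354 after OTV:Malat1.

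Stat3 levels were the steadiest of the members. In microglia the saline animals had 161, 150, 165 and 192 CPM (167 ± 17.9, n = 4), and the Malat1 ASO animals 152, 190, 151 and 162 CPM (164 ± 18.04, n = 4). The anti-TfR:Malat1 animals ran from 150 through a median of 170.1 to 179 CPM (166 ± 12.9, n = 6), and the OTV:Malat1 animals had 166, 193 and 131 CPM (164 ± 31.2, n = 3). The group means ran from 164 to 167 CPM, closer together than the animals of any group. In edgeR the log2 changes were -0.04 (SE 0.15) for OTV:Malat1, -0.01 (SE 0.12) for anti-TfR:Malat1 and -0.02 (SE 0.13) for Malat1 ASO against saline. In oligodendrocytes Stat3 stood at 58.1 ± 4.29, 55.1 ± 5.29, 57.4 ± 3.33 and 59.8 ± 6.53 CPM in saline, Malat1 ASO, anti-TfR:Malat1 and OTV:Malat1 animals. Its log2 changes in oligodendrocytes lay between -0.14 and -0.06 over the 4 comparisons in edgeR with TMM scaling. For OTV:Malat1 against saline the sign thus differed between mean CPM and edgeR. For OTV:Malat1 against saline the interval of the fold was 0.793 to 1.04 there and 0.791 to 1.20 in microglia. In astrocytes Stat3 had group means of 80.7 to 87.8 CPM, and its log2 changes against saline lay between -0.13 and 0.07.

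Gfap in oligodendrocytes was the only tested pair in which groups did not overlap in CPM, in 2 of the 28 tests. Of all 14419 genes tested in oligodendrocytes, groups did not overlap, in either direction, for 0.929% in Malat1 ASO against saline and 3.97% in the comparison of both conjugates, the 2 comparisons concerned. The share was 11.8% for OTV:Malat1 and 0.541% for anti-TfR:Malat1 against saline. In astrocytes it was 5.7%, 0.761% and 1.64% for OTV:Malat1, anti-TfR:Malat1 and Malat1 ASO against saline, and 2.04% between the conjugates. In microglia it was 5.03%, 0.593%, 1.98% and 1.74% in the same order. A count of 2 in 28 tests is not set apart from these shares. The shares are of CPM with no TMM scaling and with Malat1 in the totals. Beside the 11.8%, 2.59% of oligodendrocyte genes had an unadjusted p under 0.05 for OTV:Malat1 against saline in edgeR with TMM scaling. The part of Malat1 in these shares was not tested. Of Gfap, the saline animals had 1.58, 1.28, 2.13 and 1.20 CPM (1.55 ± 0.423, n = 4), and the Malat1 ASO animals 0.898, 0.997, 0.329 and 0.617 CPM (0.7103 ± 0.301, n = 4). The anti-TfR:Malat1 animals ran from 0.620 through 0.833 to 1.56 CPM (0.949 ± 0.333, n = 6), and the OTV:Malat1 animals had 1.57, 2.18 and 2.18 CPM (1.98 ± 0.355, n = 3). Every value after Malat1 ASO lay under the lowest saline value, and every value after OTV:Malat1 over the highest one after anti-TfR:Malat1. No adjusted p passed the threshold. The log2 difference was -1.07 (SE 0.35, unadjusted p = 0.00668, adjusted p = 1.00) for Malat1 ASO against saline and 0.92 (SE 0.32, unadjusted p = 0.00971, adjusted p = 0.991) for OTV:Malat1 against anti-TfR:Malat1 in edgeR. For anti-TfR:Malat1 against saline it was -0.75 (SE 0.30, unadjusted p = 0.0226, adjusted p = 1.00). These rest on 2 to 17 UMIs per animal. With the replicate number as a block, the unadjusted p of the last 2 comparisons rose to 0.104 and 0.145 in edgeR.

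The deposited batches gave the same sign for 2 of these comparisons, though 1 of the ratios was only 0.01. Within batches, log2 ratios of CPM + 1 for Malat1 ASO against saline were -0.44, -0.19, -1.24 and -0.45. For OTV:Malat1 against anti-TfR:Malat1 they were 0.01, 0.71 and 0.91, in the 3 batches that held both. For anti-TfR:Malat1 against saline they were -0.49, 0.17, -0.69 and -0.38, with 1 batch of the opposite sign. The sources used here do not give what a batch is. Summed astrocyte markers in oligodendrocytes ran from 214 to 260 CPM in saline animals and from 210 to 265 CPM after Malat1 ASO. They ran from 220 to 280 CPM after anti-TfR:Malat1 and from 266 to 295 CPM after OTV:Malat1. Per 1000 of these marker UMIs, Gfap had 6.40 (4.63 to 8.63), 2.98 (1.76 to 4.70), 3.67 (2.55 to 5.10) and 6.97 (4.85 to 9.69) UMIs in saline, Malat1 ASO, anti-TfR:Malat1 and OTV:Malat1 nuclei. In CPM with Malat1 in the totals, the marker level was thus highest in the OTV:Malat1 animals. Whether this order holds without Malat1 in the totals was not tested, nor was the part of the marker level in the Gfap values. Neurons had 0.435, 0.476, 0.424 and 0.521 CPM of Gfap on average in the 4 groups, which overlapped.

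C4b and Cd44 in oligodendrocytes overlapped between all groups compared. C4b was 2.95, 2.79, 4.27 and 2.41 CPM in saline animals and 2.44, 4.88 and 4.13 CPM in OTV:Malat1 animals, with a log2 difference of 0.13 (SE 0.26). The anti-TfR:Malat1 animals had 2.59 to 3.49 CPM and a log2 difference from saline of -0.05 (SE 0.23). The Malat1 ASO animals had 2.70 to 4.98 CPM and a difference of 0.30 (SE 0.24). Cd44 was 1.48, 1.05, 0.582 and 1.20 CPM in saline animals and 1.40 to 2.81 CPM, with a median of 1.89, in anti-TfR:Malat1 animals. These ranges overlap through 1 saline animal, and the log2 difference was 0.74 (SE 0.29, unadjusted p = 0.0195, adjusted p = 1.00 in edgeR). The within-batch values were 0.62, 0.23, 0.87 and 0.38. Against anti-TfR:Malat1, OTV:Malat1 animals had a Cd44 difference of -0.73 (SE 0.32, unadjusted p = 0.0369, adjusted p = 0.991 in edgeR). Oligodendrocyte nuclei with Cd44 were called doublets in 12.7% of cases against 4.59% of those without. Without the authors' doublets the log2 difference was -0.63 (unadjusted p = 0.139 in edgeR), within the range of -0.90 to -0.55 over all alternatives.

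**Figure D3:**
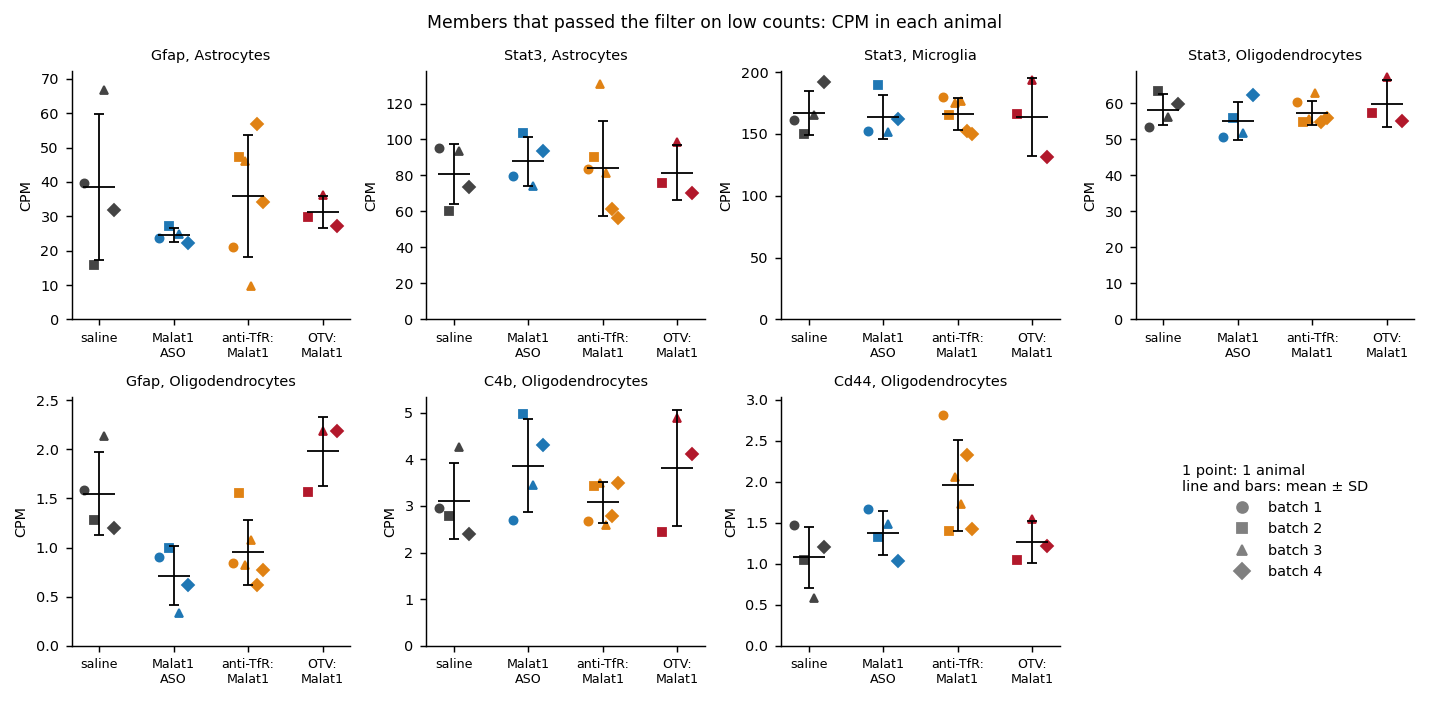
CPM of the 7 member and class pairs that passed the filter, one point per animal by treatment (marker shape gives the deposited batch), with the group mean and SD. Gfap in oligodendrocytes is 0.329 to 0.997 CPM after Malat1 ASO and 1.20 to 2.13 CPM in saline animals (adjusted p = 1.00 in edgeR), and Stat3 in microglia stays between 131 and 193 CPM.

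**Figure D4:**
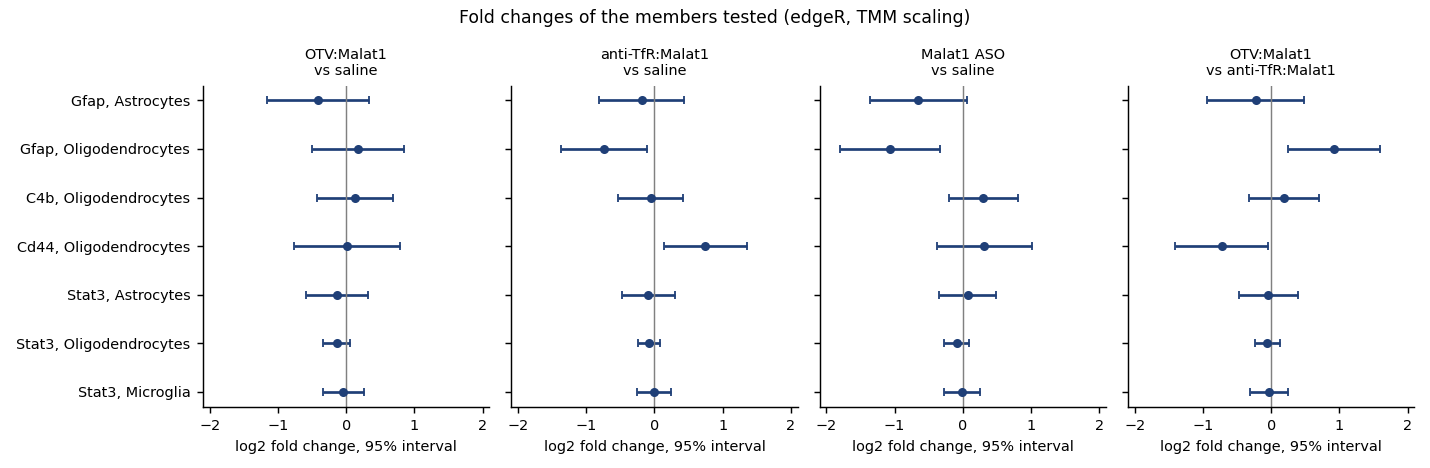
Log2 differences of the members tested in edgeR with 95% intervals, for the 4 comparisons in each class. The intervals of Stat3 in oligodendrocytes are the narrowest, and those of Gfap in oligodendrocytes lie away from 0 for Malat1 ASO (-1.07) and anti-TfR:Malat1 (-0.75) against saline, and for the comparison of both conjugates (0.92). Those of Cd44 in oligodendrocytes do so for anti-TfR:Malat1 against saline (0.74) and between the conjugates (-0.73), with no adjusted p under the threshold.

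The other members did not pass the filter on low counts and are given by animal. Fitted in edgeR without that filter they gave 52 tests, of which 0 were called, 7 had an unadjusted p under 0.05 and the smallest adjusted p was 0.899. The share over all genes of that fit is not given here, so the 7 are not read as a result about the members. Osmr in astrocytes was 6.36, 2.63, 10.7 and 4.90 CPM in saline animals and 2.37, 0, 2.25 and 2.47 CPM after Malat1 ASO, on 0 to 8 UMIs each. The anti-TfR:Malat1 animals ran from 3.85 through 7.91 to 15.4 CPM, and the OTV:Malat1 animals had 1.76, 4.94 and 0 CPM. The Malat1 ASO animals lay below all saline animals (edgeR without the filter, adjusted p = 0.945). The nearest values of the 2 groups, 2.47 and 2.63 CPM, were 1 UMI each, so this order rests on library size there. Groups did not overlap in this comparison for 1.64% of the 8547 genes tested in astrocytes, which passed the filter that Osmr failed. Cd44 in astrocytes was 2.63 to 5.56 CPM in saline animals and 2.89 to 19.3 CPM in anti-TfR:Malat1 animals, where 2 animals had over 19 CPM. C4b in astrocytes had group means of 15.2 ± 2.21 (n = 4), 17.9 ± 6.40 (n = 4), 13.8 ± 4.59 (n = 6) and 15.8 ± 4.93 CPM (n = 3) in saline, Malat1 ASO, anti-TfR:Malat1 and OTV:Malat1 animals, all overlapping. Vim in astrocytes had 0 to 4 UMIs per animal in the saline and anti-TfR:Malat1 groups, 0 to 3 after Malat1 ASO and 2 to 4 after OTV:Malat1.

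In oligodendrocytes Serpina3n was 0.738, 1.16, 1.36 and 1.20 CPM in saline animals and 0.617 to 0.997 CPM after Malat1 ASO. After anti-TfR:Malat1 it ran from 0.310 through 0.534 to 0.779 CPM, on 2 to 6 UMIs, and after OTV:Malat1 it was 0.523, 0.899 and 0.485 CPM. Vim was 0.523, 2.57 and 0.971 CPM in the OTV:Malat1 animals, where the second had 20 UMIs and every other animal of the study 1 to 9. Osmr had 0 UMIs in the 6 anti-TfR:Malat1 animals and 6 in the 4 saline animals. Vim in the OTV:Malat1 group was thus carried by 1 animal. In microglia the 6 members other than Stat3 had at most 4 UMIs in any animal.

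The share of nuclei with a UMI, each nucleus thinned to 500 UMIs, was compared by exact two-sided permutation tests over 7 members, 3 classes and 4 comparisons. None of the 84 tests passed after Benjamini-Hochberg adjustment. The smallest exact permutation p that the group sizes allow was 0.00476 for anti-TfR:Malat1 against saline and 0.0119 between the conjugates. It was 0.0286 for OTV:Malat1 or Malat1 ASO against saline. A single test at such a value cannot pass adjustment over 84 tests, so the lack of calls does not show equal shares. The smallest adjusted p was 0.2, 6 had an unadjusted p under 0.05, and on unthinned shares the smallest adjusted p was 0.4 with 8 unadjusted ones. Only members were tested in this way, so these counts have no share over all genes beside them. Serpina3n in oligodendrocytes was at 0.0285% ± 0.0112 (n = 6) after anti-TfR:Malat1 against 0.0619% ± 0.0160 (n = 4) in saline animals, exact permutation p = 0.00476, the smallest this design allows. Its within-batch log2 ratios of CPM + 1 were -0.29, -0.28, -0.63 and -0.51. Its CPM values overlapped between these groups. Osmr in oligodendrocytes gave the same exact permutation p for the same groups, with 0 against 6 UMIs. The Gfap share in oligodendrocytes was 0.0393% ± 0.0120 after Malat1 ASO against 0.0843% ± 0.0132 in saline (n = 4 each, exact permutation p = 0.0286, adjusted p = 0.48), the smallest p for 4 against 4. Osmr in astrocytes was 0.116% ± 0.0793 after Malat1 ASO against 0.327% ± 0.156 in saline animals (exact permutation p = 0.0286).

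**Figure D5:**
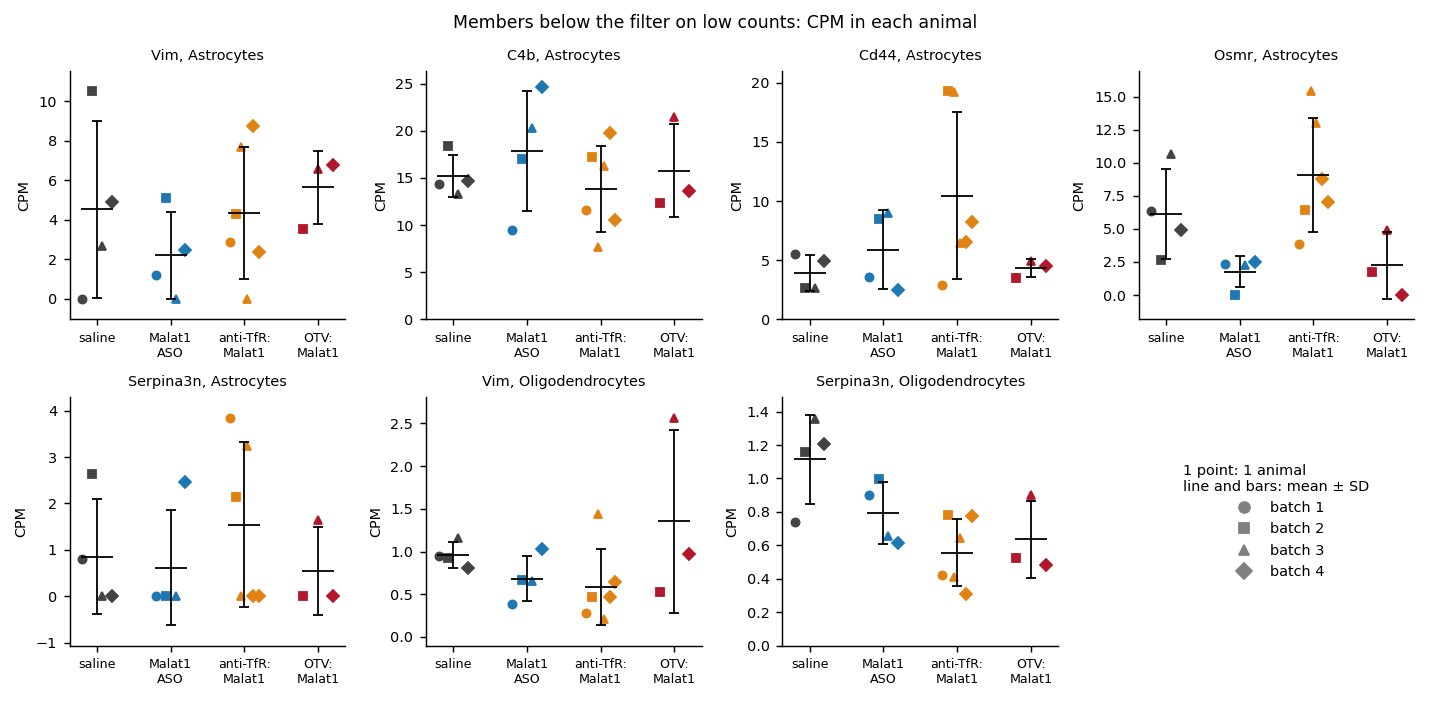
CPM of sparse members in astrocytes and oligodendrocytes, one point per animal by treatment (marker shape gives the deposited batch), with the group mean and SD. Osmr in astrocytes is 0 to 2.47 CPM after Malat1 ASO and 2.63 to 10.7 CPM in saline animals, where 2.47 and 2.63 CPM are 1 UMI each. Vim in oligodendrocytes has 1 high OTV:Malat1 animal (2.57 CPM).

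The surrounding pathway was read from 7 lists of 68 genes, of which 66 had a row. They covered intermediate filament partners, pan-reactive, A1-type and A2-type astrocyte genes, gp130 and JAK-STAT3 signalling, disease-associated oligodendrocyte genes and complement. Of 69 listings, 13 passed the filter in astrocytes, 34 in oligodendrocytes and 25 in microglia. None of the 280 tests was called in edgeR in either direction, 8 had an unadjusted p under 0.05, and the smallest adjusted p was 0.968. Of all genes tested, 1.03% to 4.07% had an unadjusted p under 0.05, by class and comparison. In oligodendrocytes, 11 of 16 genes of gp130 and JAK-STAT3 signalling were tested, and their median log2 change after OTV:Malat1 against saline was -0.11, beside 0.01 over all 14419 genes. It was -0.04 after anti-TfR:Malat1 and -0.06 after Malat1 ASO. Of the 8 disease-associated oligodendrocyte genes 7 were tested there, with medians of 0.15, -0.03 and 0.05 in the same order.

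Of the gp130 pathway, the cytokine receptor gene Lifr had 146 CPM and the kinase gene Jak1 134 CPM in astrocytes. In oligodendrocytes the phosphatase gene Ptpn11 had 201 CPM and the kinase gene Jak2 181 CPM, and in microglia Il6ra, the interleukin 6 receptor, had 357 CPM and Jak1 255 CPM. Il33, an alarmin listed among the disease-associated oligodendrocyte genes, had 446 CPM in oligodendrocytes and 96.5 CPM in astrocytes. Synm, a filament partner of Vim, had 22.9 CPM in oligodendrocytes and 7.76 CPM in astrocytes. These are means over the 17 animals.

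Genes whose level followed a member most closely over the 17 animals, after removing group means, were ranked by Pearson correlation of log2 CPM, as a description. For Gfap in astrocytes they were Orai1 (0.87), Tmem219 (0.85) and Arhgef37 (0.82), of 7679 genes. For C4b in oligodendrocytes they were Cdc37 (0.73), Eif1ax (0.70) and Fbxo31 (0.69), of 6783 genes, and for Stat3 in microglia Nploc4 (0.81), Ubxn7 (0.77) and Rnmt (0.76), of 7811 genes. The points share their libraries and depths, and differences between the deposited batches were not removed. Vim in astrocytes and Serpina3n in oligodendrocytes were too low for this ranking.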

How the data were processed

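Nuclei were isolated from frozen posterior brain of 17 mice, sorted by DAPI and captured by 10x Genomics droplets, per the labels' protocols. The authors deposited integer UMI counts of 26131 genes in 284074 nuclei, with 500 or more UMIs and at most 4500 genes each, and 55393588 to 79866411 UMIs per animal. Cell Ranger 6.0.1, Seurat 4 and mm10 are named in the submitters' processing notes. The deposited label came with a prediction score, a fraction per nucleus that was not used further. The label tool, doublet caller, intron counting and strand use are not stated in the sources used here. Whether overlapping antisense reads were counted is thus not known here. The 47758 nuclei called doublets by the authors stayed in.

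UMIs were summed per animal and label and tested with edgeR 4.0.16 (glmQLFit, TMM, filterByExpr, all 17 animals, R 4.3.3), with Benjamini-Hochberg adjustment over all genes and a threshold of 0.05, checked on simulated data. Shares were compared by exact permutation (Python 3.11.15, scipy 1.17.1). Fold values for single batches used CPM + 1. Alternatives included DESeq2 1.42.0, other scaling, no filter, blocks, doublets removed and each animal left out. All members were named. Genes of the lists were named from the 2 of highest CPM per class where none was called. For 1 gene of the lists the values are not reported here. The members and lists were chosen with earlier results of these data known.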

Additional observations from a re-analysis of the deposited data

How the results depend on the processing

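Over 27 alternatives, the count of members called stayed at 0 in each of the 346 alternative values, and no member's change gained or lost a call. The smallest adjusted p of a member under any of them was 0.807 in edgeR or DESeq2. Of the log2 changes, 703 kept their sign. Those that turned were near 0. For Stat3 in microglia against saline, OTV:Malat1 gave 0.010 without the authors' doublets, 0.029 where label and cluster agree and 0.019 in nuclei of 1000 or more UMIs. There anti-TfR:Malat1 gave 0.000878 with no filter on low counts, 0.00512 with a batch block and 0.00802 in nuclei of 1000 or more UMIs. Malat1 ASO gave 0.026 without doublets and 0.045 where label and cluster agree. OTV:Malat1 against anti-TfR:Malat1 gave 0.014 without doublets, 0.033 where label and cluster agree and 0.011 in nuclei of 1000 or more UMIs. Cd44 in oligodendrocytes, OTV:Malat1 against saline, gave -0.036 where label and cluster agree.

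With the replicate number as a block, Stat3 for anti-TfR:Malat1 against saline gave 0.12 in astrocytes and 0.063 in microglia, and no member was called (0). The reported tests did not use the numbers as pairs. Same-numbered animals correlated above 0.1 in 6 of 21 pairs in astrocytes, 11 of 21 in oligodendrocytes and 8 of 21 in microglia. Their median correlations were 0.034, 0.219 and 0.073, against -0.018, -0.069 and -0.031 for other pairs. Animals of 1 deposited batch correlated above 0.1 in 11 of 27, 19 of 27 and 16 of 27 pairs. The median for batches was 0.369 in oligodendrocytes against -0.121 for other pairs. A batch block called no member either (0).

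Leaving out 1 animal turned 13 changes in at least 1 case, and the cause was not tested. For OTV:Malat1 against saline the ranges were -0.27 to 0.037 for Stat3 in astrocytes, -0.17 to 0.074 for Stat3 in microglia, and -0.088 to 0.35 for C4b and -0.15 to 0.25 for Cd44 in oligodendrocytes. For anti-TfR:Malat1 against saline they were -0.39 to 0.073 for Gfap and -0.21 to 0.076 for Stat3 in astrocytes, -0.13 to 0.10 for C4b in oligodendrocytes and -0.055 to 0.055 for Stat3 in microglia. For Malat1 ASO against saline, Stat3 ran from -0.026 to 0.24 in astrocytes and from -0.086 to 0.050 in microglia. For OTV:Malat1 against anti-TfR:Malat1 they were -0.17 to 0.077 for Stat3 in astrocytes, -0.046 to 0.40 for C4b in oligodendrocytes and -0.17 to 0.082 for Stat3 in microglia. Some members failed the filter on low counts in some alternatives and have no value there. Members that failed the filter in the reported fit had at most 20 UMIs in any animal.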
